A study of Danio rerio with 36 samples.

Results

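A set of 80 zebrafish genes stood at far higher transcript levels in the dissected eye tissues of lrp2-/- fish than in those of wild-type fish, in at least 2 of 3 tissues. They were chosen by their values at 1 month of age. In the retinal pigment epithelium (RPE), in the retina, and in the sclera with the choroid, a gene was counted when its lowest mutant library lay over 3 times above its highest wild-type library and its mutant mean was at least 1 TPM (a transcript level scaled for gene length and for library size, with the same total in every library). Of the 31916 genes in the deposited table, 83 were counted in at least 2 tissues, and F10, SERPINE3 and DRD3 were left out of these by name. The same rule turned round, for genes lower in the mutant, found 100 genes. Since the values of the 3 dissected tissues chose the 80 genes, they are given as a description with no test, while whole eyes and larval eyes were not used for the choice.

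Lrp2, also called megalin, is a large endocytic receptor of the low-density lipoprotein receptor family. It sits on absorptive epithelia, the RPE among them, and takes up many ligands from the fluid outside the cell, including morphogens such as Bmp4 and Sonic hedgehog. Zebrafish that lack it grow enlarged eyes. RNA was sequenced from lrp2-/- and wild-type fish (called ZDR in the sample titles) at 1 month of age, as RPE, retina, choroid with sclera, and whole eyes. Whole larval eyes were sequenced at 5 days, from fish transgenic for hsp70l:eGFP-bmp4 and their controls and from fish transgenic for hsp70l:shha-eGFP and their controls. In both lines a heat-shock promoter drives the transgene, and both control groups are labelled wild type. Each of the 12 groups had 3 libraries. The labels give no allele and do not say whether the mutants and the wild types were siblings or whether each library came from separate fish, so the p-values measure the spread between libraries, and the lrp2 genotype and the family of the fish cannot be told apart in the 1-month comparisons.

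Total counts lay between 17543343 and 26708466 per library. The tissue labels matched their markers, with 10 RPE marker genes summing to 10200 to 14100 TPM in mutant RPE and 13500 to 18800 TPM in wild-type RPE, and 11 rod marker genes to 37200 to 41800 TPM in mutant retina and 42900 to 49100 TPM in wild-type retina. The LRP2 transcript was present in every group, and its level does not check the genotype. Mutant RPE had 6.24, 12.4 and 9.64 TPM, against 11.0, 10.2 and 10.9 TPM in wild-type RPE. Mutant retina had 14.17, 16.2 and 15.74 TPM, all below the 20.85, 20.07 and 21.06 TPM of wild-type retina. In RPE, sclera and whole eyes the genotypes overlapped. Markers of other cell types differed between the genotypes as well. The sum of 13 macrophage and microglia marker genes was 303 to 344 TPM in mutant RPE and 177 to 218 TPM in wild-type RPE, and 314 to 583 TPM in mutant sclera and 131 to 231 TPM in wild-type sclera. Red blood cell markers (5 genes) summed to 2510 to 4500 TPM in mutant RPE, against 15200 to 19100 TPM in wild-type RPE, and no gene of these lists was at 0 throughout a group. Their part in the results below was not tested. In such bulk samples, fewer cells of a type and less RNA per cell cannot be told apart. A single wild-type retina library, number 12, held 4900 TPM of the 3 lens marker genes where the other wild-type retinas held 30.9 and 31.5 TPM.

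By tissue, the 80 genes were counted 50 times in RPE, 70 times in retina and 64 times in sclera. Of all genes with a mutant mean of at least 1 TPM, 0.703% were counted in RPE (139 of 19775), 0.984% in retina (184 of 18697) and 0.9% in sclera (176 of 19550), and nothing is read from these shares because the rule used them. All 3 tissues counted for 24 genes, retina and sclera for 30, RPE and retina for 16, and RPE and sclera for 10. Where only 2 tissues counted, the third was described likewise: all 3 mutant libraries lay above all 3 wild-type libraries for 38 of the 56 genes, the groups overlapped for the other 18, and no gene lay below. The share of all genes without overlap was not counted for these tissues, so nothing is read from the 38. The mutant level over the counted tissues had a median of 7.07 TPM and a range of 1.02 to 243 TPM, with 32 genes under 5 TPM and 34 at 10 TPM or more. The highest mutant mean was in the retina for 53 genes, in the sclera for 15 and in the RPE for 12. On the wild-type side, 51 of the 80 genes were at 0 TPM in at least 1 of the 9 dissected libraries.

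**Figure D1:**
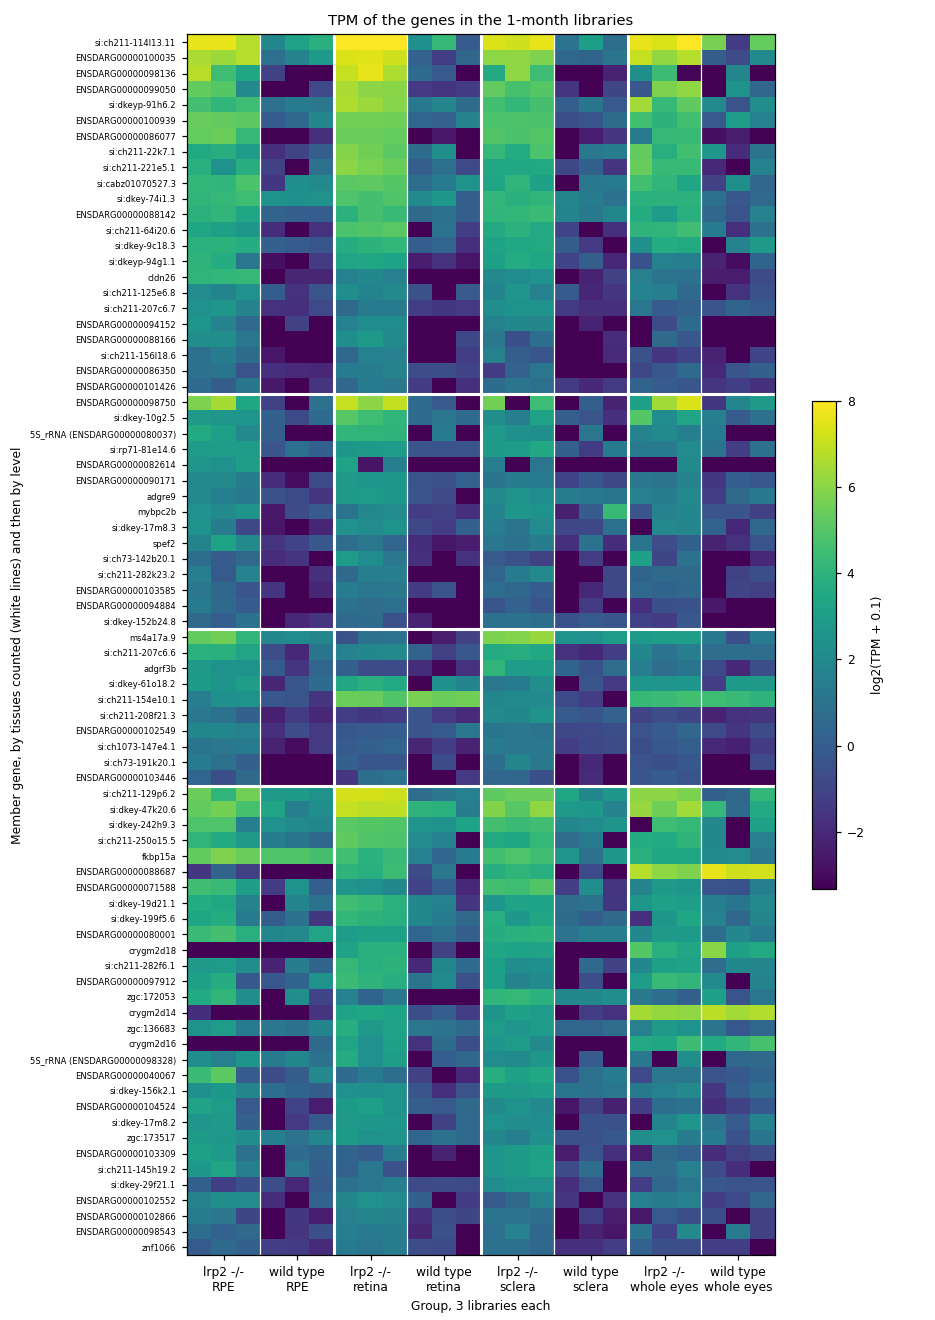
Heat map of the level, log2(TPM + 0.1), of 78 of the 80 genes (rows) in the 24 libraries of 1 month (columns, 3 per group, mutant left of wild type for each tissue and for whole eyes). White horizontal lines separate, from the top, 23 genes counted in all 3 tissues, 15 counted in RPE and retina, 10 in RPE and sclera and 30 in retina and sclera, and the mutant tissue columns are brighter than the wild-type ones by the choice of the genes.

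Few of the 80 genes have a known function. A symbol was present for 53 of them, of which 38 are clone-based (beginning with si: or zgc:, given to genes predicted from a sequenced genome clone) and 15 are of other kinds. The other 27, or 33.8%, have no symbol, against 11.5% of the 25424 genes that reached 1 TPM in a dissected library. Clone-based symbols made up 47.5% of the 80 genes and 16.8% of those 25424. Among the genes named for what they encode are claudin cldn26, a tight junction protein family member, and the adhesion G protein-coupled receptors adgrf3b and adgre9. Others are ms4a17a.9 of the MS4A family of membrane proteins, and mybpc2b, a myosin-binding protein of fast muscle. The flagellar protein gene spef2, the FK506-binding protein gene fkbp15a, the zinc finger gene znf1066, 3 gamma crystallins of the fish lens (crygm2d14, crygm2d16 and crygm2d18) and 2 copies of 5S ribosomal RNA also have a named product.

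The gene with the highest level was si:ch211-114l13.11, which has no named product. Mutant RPE held 189, 196 and 108 TPM of it, against 3.6, 9.12 and 14.5 TPM in wild-type RPE. In the retina it was at 430, 374 and 388 TPM in mutants and at 4.99, 18.8 and 0.85 TPM in wild types. Mutant sclera had 167, 145 and 190 TPM, against 1.87, 7.86 and 1.61 TPM in wild-type sclera. Each mutant library was thus above every wild-type library of its tissue, while the wild-type libraries of a tissue differed among themselves by as much as 18.8 against 0.85 TPM. Whole eyes, which the rule did not use, had 196, 163 and 255 TPM in mutants and 51.6, 0.3 and 39.4 TPM in wild types. The mutant whole eyes were all higher, but a wild-type library almost without the transcript stood beside a pair with far more, and the whole-eye difference (log2 fold change 2.68 ± 1.17 SE) did not pass edgeR's quasi-likelihood test (adjusted p = 0.37).

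A second pattern was a very low wild-type level in all dissected libraries, as for cldn26. The claudin gene cldn26 had 16.8, 18.2 and 18.5 TPM in mutant RPE and 0, 0.13 and 0.13 TPM in wild-type RPE. Mutant retina had 3.08, 3.71 and 2.99 TPM, and all 3 wild-type retina libraries listed it at 0. In sclera the mutants had 3.9, 4.41 and 5.22 TPM, against 0, 0.12 and 0.35 TPM in wild types. Claudins seal the spaces between epithelial cells, as in the RPE barrier, and of the 3 tissues the mutant level of cldn26 was highest in the RPE. The long non-coding RNA si:dkey-74i1.3 was not of this pattern and was present in both genotypes. It had 17, 18.5 and 22.4 TPM in mutant RPE against 5.52, 5.04 and 5.29 TPM in wild-type RPE, and 29.1, 24.9 and 30.1 TPM in mutant retina against 4.04, 6.55 and 0.99 TPM in wild-type retina. In sclera the mutants had 18.2, 14.5 and 16.9 TPM and the wild types 3.51, 2.64 and 1.85 TPM. Mutant and wild-type ranges were apart for both genes in all 3 tissues, as the rule required, with close values among the mutant libraries.

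Of the other genes with a symbol that all 3 tissues counted, several were highest in the mutant retina. The gene si:dkeyp-91h6.2 had 101, 77.4 and 61.7 TPM in mutant retina against 2.27, 3.45 and 1.48 TPM in wild-type retina, with mutant means of 21.3 TPM in RPE and 22.3 TPM in sclera. For the clone-named gene ENSDARG00000096772 the mutant retina had 65.6, 53.4 and 44.3 TPM, against 0.98, 1.7 and 0.46 TPM in wild-type retina. Mutant retina had 60.3, 47 and 35 TPM of si:ch211-22k7.1, against 1.52, 4.93 and 0 TPM in wild-type retina. All 3 genes were lower in mutant RPE and sclera than in mutant retina. The genes si:cabz01070527.3 (34.2, 36 and 32.2 TPM in mutant retina, 1.61, 2.39 and 5.5 TPM in wild-type retina) and si:ch211-64i20.6 (27.6, 29.9 and 34.7 TPM in mutant retina, 0, 1.87 and 0.32 TPM in wild-type retina) followed the same order. A more even level over tissues was seen for si:dkey-9c18.3, with mutant means of 14.3 TPM in RPE, 15.4 TPM in retina and 10.7 TPM in sclera against wild-type means of 0.85, 0.77 and 0.393 TPM. The even group also held the clone-named gene ENSDARG00000094518, si:ch211-207c6.7 and si:ch211-156l18.6 at 0.72 to 5.94 TPM over the mutant tissue libraries, where no wild-type tissue library passed 0.91 TPM. Level and tissue order thus differed widely within the set.

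Several genes counted in 2 tissues were marked by the tissue. The MS4A family gene ms4a17a.9 was high in mutant sclera (54.8, 58.9 and 76.9 TPM, against 5.58, 5.15 and 7.61 TPM in wild-type sclera) and in mutant RPE (38.9, 46.6 and 17.5 TPM, against 3.71, 4.47 and 3.54 TPM in wild-type RPE). In the retina it was at 0.6, 1.8 and 1.87 TPM in mutants and 0, 0.09 and 0.36 TPM in wild types. The adhesion receptor gene adgrf3b was distributed likewise, with 16.8, 7.37 and 7.79 TPM in mutant sclera against 1.15, 0.62 and 1.56 TPM in wild-type sclera. Both genes were most abundant in sclera and RPE. The macrophage markers were lower in retina as well (20.9 to 25.5 TPM in mutants and 18.4 to 19.9 TPM in wild types), and so were other lists. The macrophage sums in sclera and RPE, given above, were higher in mutants without overlap. Corneal and surface epithelium markers summed to 48200 to 58800 TPM in mutant sclera, 1170 to 15700 TPM in mutant RPE and 93.7 to 110 TPM in mutant retina. In wild types they summed to 50000 to 64800 TPM, 4670 to 6430 TPM and 68.4 to 235 TPM in the same order. Vessel markers summed to 111 to 131 TPM, 797 to 1370 TPM and 80.3 to 87.6 TPM in mutants, in the same order. In wild types the vessel sums were 114 to 281 TPM, 772 to 1470 TPM and 63.7 to 66.5 TPM. The part of any of these cells in the values was not tested. A tissue distribution opposite to that of ms4a17a.9 and adgrf3b was shown by si:ch211-129p6.2, with 154, 156 and 141 TPM in mutant retina against 1.54, 2.24 and 3.09 TPM in wild-type retina, and 36.9, 43.1 and 42.4 TPM in mutant sclera against 10.4, 3.76 and 6.19 TPM in wild-type sclera. Its expected counts, which are not scaled for length, overlapped in sclera, at 414, 576 and 804 in mutants and 417, 223 and 272 in wild types. They overlapped in RPE too, at 486, 200 and 456 in mutants and 249, 378 and 218 in wild types. The part of the length scaling in the TPM difference was not tested. The retina also led for si:dkey-47k20.6, at 129, 116 and 120 TPM in mutants and 16.3, 14.8 and 2.6 TPM in wild types.

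In fkbp15a the RPE stood apart from the other tissues. The gene belongs to a family of FK506-binding proteins, and its mammalian product is found on endosomes and binds actin. It had 23.9, 14.8 and 21.1 TPM in mutant retina against 3.06, 1.2 and 2.41 TPM in wild-type retina, and 23.6, 29.2 and 23.3 TPM in mutant sclera against 5.8, 1.74 and 6.2 TPM in wild-type sclera. In RPE the mutants had 38.9, 56.4 and 42.9 TPM and the wild types 30.6, 30.3 and 25.5 TPM. The RPE groups did not overlap either, but the mutant values were under 3 times the wild-type ones. A different case was the clone-named gene ENSDARG00000094605, counted in RPE (2.81, 5.01 and 5.54 TPM in mutants, 0.75, 0.67 and 0.23 TPM in wild types) and sclera. It was most abundant in the retina, where mutants had 43.4, 41.5 and 30.5 TPM and wild types 51.4, 42.8 and 46.5 TPM, so that there the groups overlapped. For the muscle protein gene mybpc2b, mutant sclera had 3.39, 6.33 and 5.42 TPM and wild-type sclera 0.1, 0.87 and 20 TPM. The sclera did not count because of that single high library. The 7 skeletal muscle marker genes summed to 548 to 822 TPM in mutant sclera and 686 to 949 TPM in wild-type sclera.

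The other members with a known product stood at low levels. The gene spef2 encodes a protein of the sperm flagellum and of motile cilia. Mutant RPE had 3.35, 9.44 and 3.94 TPM of it, against 0.24, 0.39 and 0.73 TPM in wild-type RPE, and mutant retina 1.53, 2.16 and 1.18 TPM, against 0.18, 0.06 and 0.08 TPM in wild-type retina. In sclera the mutants had 2.06, 1.82 and 2.64 TPM and the wild types 0.19, 1.76 and 0.17 TPM, so that a single wild-type library came close to the mutants without reaching them. The adhesion receptor gene adgre9 was highest in the retina, at 6.69, 7.49 and 6.56 TPM in mutants and 0.69, 0.47 and 0 TPM in wild types, and in sclera it was at 3.91, 5.49 and 4.45 TPM in mutants and 2.68, 2.26 and 2.02 TPM in wild types. The zinc finger gene znf1066 had 2.51, 2.06 and 2.61 TPM in mutant retina against 0.54, 0.48 and 0 TPM in wild-type retina. In whole eyes the 3 mutant libraries lay above the wild-type ones for adgre9 (2.91, 2.67 and 3.92 TPM against 0.33, 1.42 and 2.27 TPM in wild types) and for znf1066 (1.09, 0.57 and 0.56 TPM against 0.33, 0.31 and 0 TPM in wild types). Neither passed the test (adjusted p = 0.446 and adjusted p = 0.439 by edgeR).

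The 3 genes just inside the rule were zgc:173517, whose lowest mutant retina at 5.57 TPM was 3.01 times the highest wild-type retina at 1.85 TPM, and 2 genes without a symbol at 3.04 and 3.07 times. Just outside lay zgc:153932, at exactly 3 times, lipib, whose lowest mutant RPE library at 3.74 TPM was 2.99 times the highest wild-type one at 1.25 TPM, and zgc:173714, at 2.96 times. A fold of 2 in place of 3 gave 153 genes and a fold of 5 gave 26. Scaling by CPM with TMM in place of TPM gave 61 genes, of which 58 were among the 80. A single library weighed on the count: without mutant RPE number 21 the rule gave 109 genes.

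**Figure D2:**
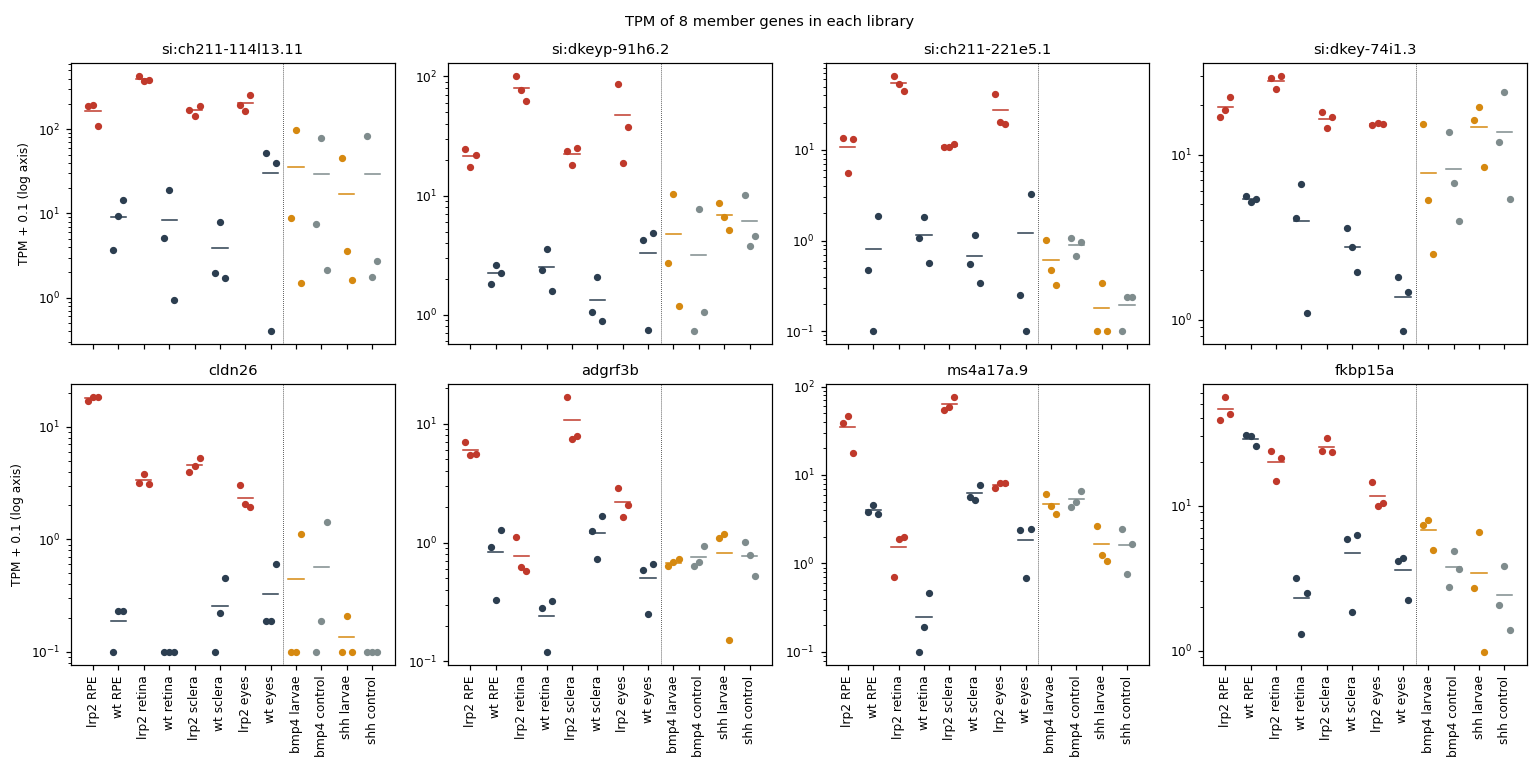
TPM + 0.1 on a log axis for 8 of the genes in each of the 36 libraries, with a line at the group mean. Red marks lrp2-/- and dark blue wild type (wt) at 1 month, orange transgenic larvae and grey their controls. Each mutant or transgenic group is left of its wild-type or control group. The mutant tissue libraries lie above the wild-type ones, and single larval libraries of si:ch211-114l13.11, at up to 97.8 TPM, stand far above the other larval ones.

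Gamma crystallins are structural proteins of the lens fibre cell. The members crygm2d14, crygm2d16 and crygm2d18 and ENSDARG00000088687, which has no symbol and was named after its values were seen, are described side by side. No annotation used here names ENSDARG00000088687 as a crystallin. In mutant retina crygm2d18 had 9.24, 14.1 and 14.6 TPM, against 0, 0.36 and 0 TPM in wild-type retina, and in mutant sclera it had 10, 9.35 and 9.2 TPM, where all 3 wild-type libraries listed it at 0. The RPE libraries of both genotypes listed it at 0. In whole eyes, which contain the lens, the order was not kept: mutants had 32.5, 14.1 and 10.4 TPM and wild types 63, 8.49 and 11.8 TPM. The gene ENSDARG00000088687 went further, with 107, 66.8 and 55.9 TPM in mutant whole eyes, all below the 190, 142 and 151 TPM of wild-type whole eyes. It was the only one of the 80 genes whose mutant whole eyes were all below the wild-type ones, which was so for 7.27% of all genes with a wild-type mean of at least 1 TPM.

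The same 4 genes were among the most abundant transcripts of larval eyes, at a mean of 3360 TPM over the 6 larval control libraries for crygm2d18, 3290 TPM for crygm2d14, 3060 TPM for crygm2d16 and 5360 TPM for ENSDARG00000088687. The mutant retina mean was 0.376%, 0.295%, 0.257% and 0.321% of that larval level, and the mutant sclera mean 0.283%, 0.225%, 0.192% and 0.274%. A further gamma crystallin, crygm2d6, is no member because it was counted in sclera only. It stood at 0.327% of its larval level in mutant retina and 0.238% in mutant sclera. Other transcripts abundant in larval eyes were set beside these. In mutant retina cyt1 stood at 0.282% of its larval level, cyt1l at 0.238%, MT1X at 3.01% and TYRP1 (ENSDARG00000056151) at 7.27%. In mutant sclera the same genes stood at 28.3%, 97.7%, 0.617% and 12.1%. Among these other transcripts, only cyt1 and cyt1l had a share in mutant retina near that of the crystallins. Mutant retina means were 3.98 TPM for cyt1, 2.46 TPM for cyt1l, 121 TPM for MT1X and 81.7 TPM for TYRP1. Wild-type retina means were 1.17, 0.733, 299 and 67 TPM in the same order. The sum of the 4 genes was also set against that of 3 lens genes, cryaa and crybb1 for crystallins and lim2.1 for a fibre membrane protein. It was 82.8%, 76.2% and 94.8% of the lens sum in mutant retina and 89.5%, 106% and 96.4% in mutant sclera, and 60.6% to 89.7% in the 12 larval libraries. In whole eyes at 1 month it was 1.09%, 0.756% and 0.803% in mutants and 1.76%, 1.24% and 1.47% in wild types. It was 1.81%, 4.74% and 4.21% in mutant RPE and 0%, 0% and 4.49% in wild-type RPE, 4.11%, 0.102% and 2.73% in wild-type retina and 0%, 3.06% and 1.04% in wild-type sclera. The 4 genes were chosen for high values in mutant retina and sclera, so the ratios there are a description. The lens sum itself was 53.5 to 57.3 TPM in mutant retina and 30.9, 4900 and 31.5 TPM in wild-type retina, and in sclera 36.3 to 40.2 TPM in mutants and 19.4 to 25.8 TPM in wild types. Where these reads came from was not tested. The crygm2d genes are near-identical copies in tandem, so reads may have been divided among them and single values are uncertain.

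**Figure D3:**
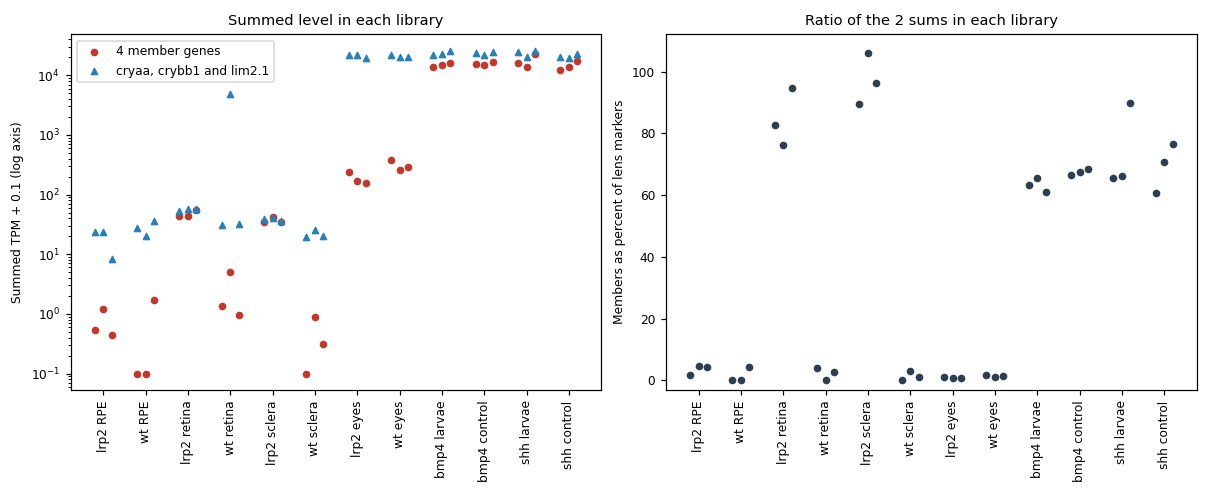
Left, summed TPM + 0.1 on a log axis of the members crygm2d14, crygm2d16, crygm2d18 and ENSDARG00000088687 (circles) and of the 3 lens genes cryaa, crybb1 and lim2.1 (triangles) in each library. Right, the first sum as a percent of the second; mutant retina and sclera lie between 76.2% and 106%, the larval libraries between 60.6% and 89.7%, and whole eyes of 1 month between 0.756% and 1.76%.

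Whole eyes at 1 month showed whether the levels were higher in libraries the rule had not used. The mutant mean was the higher one for 75 of the 80 genes and the lower one for 5. For 50 genes all 3 mutant libraries lay above all 3 wild-type ones, 29 overlapped and 1 lay below. Cell type markers also differed without overlap in these libraries. The 10 RPE markers summed to 668 to 754 TPM in mutant and 318 to 565 TPM in wild-type whole eyes, the 13 macrophage and microglia markers to 48.2 to 63.9 TPM in mutant and 30.4 to 46.3 TPM in wild-type ones, and the 5 red blood cell markers to 828 to 1820 TPM in mutant and 2130 to 3210 TPM in wild-type ones. Their part in the result was not tested. Of the 65 genes with a mutant mean of at least 1 TPM, 41 were without overlap and higher, or 63.1%, against 14.9% of all genes at that level. The rule itself, a fold over 3 between lowest and highest library, was met in whole eyes by 11 of these 65, or 16.9%, against 0.277% of all genes (54 of 19489). The lack of overlap was seen for 15 of the 24 genes counted in 3 tissues and for 35 of the 56 counted in 2. Like the 75 and the 50 above, these counts include genes under 1 TPM. The share of all genes on that basis was not counted, so nothing is read from them. The labels do not say whether whole eyes and tissues came from the same families, so in whole eyes too the genotype and the family cannot be told apart.

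In edgeR's quasi-likelihood test across 21411 genes, 5 of the 80 were higher in mutant whole eyes at an adjusted p under 0.05 and none was lower, where 0.374% of all genes tested were higher and 0.56% lower. A low-count filter left 66 of the 80 in the test, and 61 of these had a positive and 5 a negative log2 fold change. At an unadjusted p under 0.05, 42 were higher and 2 lower, against 7.08% and 7.05% of all genes. DESeq2 called 24 higher and 1 lower, against 2.21% and 2.62% of all genes. With limma 3 were higher with 0.1 TPM added before the log, against 0.364% of all genes, and 8 with 1 TPM added, against 0.509%. The count thus depended on the method, and it also rested on single libraries. Without mutant whole eye 3 it was 0, where 0.00457% of all genes were higher, and without wild-type whole eye 1 it was 2, where 0.115% were. Without mutant whole eye 1 it was 8, where 0.583% of all genes were higher, and without wild-type whole eye 3 it was 8, where 0.178% were.

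The lowest adjusted p belonged to si:dkey-74i1.3, the long non-coding RNA. Mutant whole eyes had 15.1, 15.4 and 15.2 TPM and wild-type whole eyes 1.72, 0.75 and 1.36 TPM (log2 fold change 3.48 ± 0.29 SE, adjusted p = 0.00827 by edgeR). Next came fkbp15a, with 14.5, 9.88 and 10.3 TPM in mutants and 4.03, 4.27 and 2.12 TPM in wild types (log2 fold change 1.87 ± 0.18 SE, adjusted p = 0.00931 by edgeR). Both rose in mutant whole eyes with little spread within a genotype. Without mutant whole eye 3, both had an adjusted p of 0.0746 by edgeR, and for fkbp15a it was 0.0528 without wild-type whole eye 2 and 0.0606 by limma with 0.1 TPM added.

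The other 3 genes called have no symbol. ENSDARG00000100035 had 127, 71.9 and 107 TPM in mutant whole eyes and 0.92, 0.5 and 4.2 TPM in wild-type whole eyes (log2 fold change 5.70 ± 0.63 SE, adjusted p = 0.0186 by edgeR). It was also the second most abundant of the 80 genes in the tissues, with 168, 175 and 145 TPM in mutant retina against 1.08, 0.33 and 1.24 TPM in wild-type retina. ENSDARG00000088142 had 12.6, 7.67 and 13.9 TPM in mutant whole eyes against 1.22, 0.67 and 3.12 TPM in wild-type whole eyes (log2 fold change 2.50 ± 0.37 SE, adjusted p = 0.0362 by edgeR). ENSDARG00000086077, named because it was called, had 2.49, 19.1 and 20 TPM in mutants and 0.04, 0.08 and 0 TPM in wild types (adjusted p = 0.045 by edgeR). Its counts were 679 in mutants and 3 in wild types, a ratio of 231 with a 95% exact interval of 78.6 to 1120 that covers counting error only. The mutant library with the low value was number 1, and the groups did not overlap for any of the 3 genes. All 3 calls rested on single libraries. For ENSDARG00000100035 the adjusted p by edgeR was 0.0632 without wild-type whole eye 1, 0.0683 without number 2 and 0.11 without mutant whole eye 3. For ENSDARG00000088142 it was 0.118 without wild-type whole eye 1, 0.0607 without number 2, 0.0767 without mutant whole eye 2 and 0.183 without number 3, and 0.065 by limma with 0.1 TPM added. For ENSDARG00000086077 it was 0.0888 to 0.177 without any 1 of the libraries other than mutant whole eye 1, 0.0669 with no low-count filter and 0.0648 by limma with 1 TPM added.

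Several genes narrowly missed the threshold. For the flagellar gene spef2 the log2 fold change was 2.45 ± 0.43 SE (adjusted p = 0.0506 by edgeR), from 1.99, 0.53 and 1.05 TPM in mutants and 0.12, 0.21 and 0.66 TPM in wild types, which overlap. The gene si:ch211-64i20.6 had 16.2, 17.1 and 22.9 TPM in mutants against 2.49, 0.2 and 1.81 TPM in wild types (adjusted p = 0.054 by edgeR). For cldn26, 2.91, 1.97 and 1.85 TPM in mutants stood against 0.09, 0.09 and 0.5 TPM in wild types (log2 fold change 3.19 ± 0.66 SE, adjusted p = 0.0747 by edgeR). By edgeR the receptor gene adgrf3b had a log2 fold change of 2.31 (adjusted p = 0.0574), the gene ms4a17a.9 one of 2.07 (adjusted p = 0.0765) and si:dkeyp-91h6.2 one of 3.79 (adjusted p = 0.0825). For each of them the groups did not overlap and the mutants were above the wild types. In the other direction, ENSDARG00000088687 had a log2 fold change of -1.16 ± 0.24 SE (adjusted p = 0.0825 by edgeR).

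The families of cldn26 and spef2 were tested in whole eyes as well. Of 24 claudin genes, cldn26 among them, edgeR called 0, where 0.374% of all genes were higher and 0.56% lower. At an unadjusted p under 0.05 by edgeR there were 5, against 3025 of all 21411 genes. DESeq2 called 1 higher and 1 lower, against 2.21% and 2.62% of all genes. The median log2 fold change of the claudins was -0.07 beside 0.01 for all genes. Of 37 genes of motile cilia, spef2 among them, edgeR called CFAP20DC and DNAH1 higher and CCDC39 lower, beside the same shares of all genes. At an unadjusted p under 0.05 by edgeR there were 6, DESeq2 called 3 higher and 1 lower, and the median was -0.11.

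**Figure D4:**
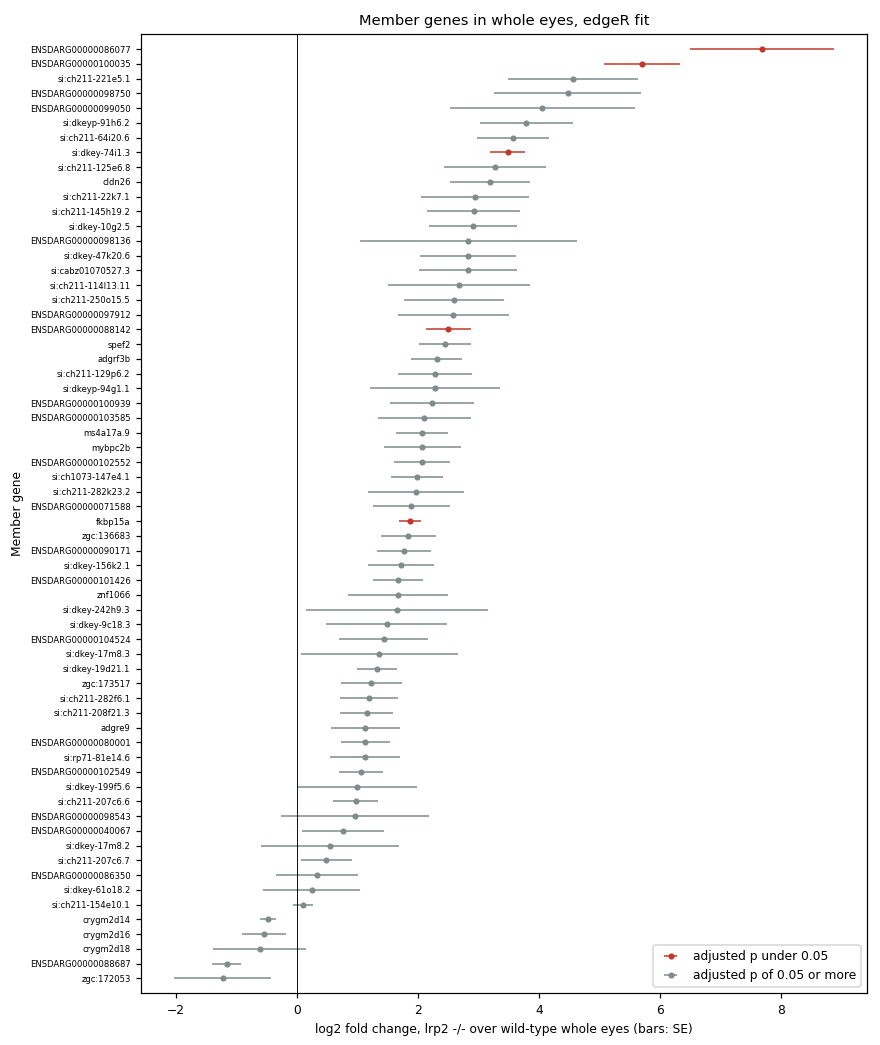
Log2 fold change of mutant over wild-type whole eyes for 64 of the 66 genes that passed the low-count filter, from the edgeR fit, with bars for the SE. Red marks the 5 genes with an adjusted p under 0.05, and 59 of the 64 values lie right of 0.

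The larval eyes give levels of the same genes at 5 days, and fish of both control groups are labelled wild type. Of the 80 genes, 56 (70%) reached 1 TPM in at least 1 of the 6 larval control libraries, against 82.5% of the 25424 genes that reached 1 TPM in a dissected library. A larval control library at or above the lowest mutant whole eye of 1 month was found for 46 (57.5%), against 85.3% of those genes, and one at or above the mean of the mutant whole eyes for 28 (35%), against 75%. The other end was formed by 24 genes (30%) under 1 TPM in all 6 larval controls, adgre9 and spef2 among them, against 17.5%. The 80 genes had been chosen for high mutant levels, which bears on the comparisons with mutant whole eyes. In these comparisons of level, age, stock and the separate scaling of the tables cannot be told apart.

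Between the larval control groups, edgeR called 0 of the 50 members tested higher or lower in bmp4 controls against shh controls, where 0.00947% of all genes (2 of 21110) were called in each direction. At an unadjusted p under 0.05 there were 13, against 8.92% of all genes. DESeq2 called 4 higher and 3 lower, against 0.554% and 0.483% of all genes. With 0.1 TPM added, limma called 1 higher and 1 lower, against 0.0379% and 0.0142%. The lowest adjusted p belonged to neighbours of a genome clone, si:ch211-207c6.6 and si:ch211-207c6.7. The bmp4 controls had 5.38, 3.34 and 2.83 TPM of si:ch211-207c6.6 and the shh controls 0.06, 0.29 and 0.16 TPM (log2 fold change 4.44 ± 0.57 SE, adjusted p = 0.0986 by edgeR). For si:ch211-207c6.7 the bmp4 controls had 2.9, 1.38 and 2.26 TPM and the shh controls 0.07, 0.25 and 0.33 TPM (log2 fold change 3.79 ± 0.52 SE, adjusted p = 0.0986 by edgeR). Over the settings tried, the adjusted p ran from 5.7e-08 to 0.232 for the first gene and from 2.64e-10 to 0.302 for the second. A comparison by range took genes with a mean of at least 1 TPM in a larval control group, 45 members among them. There the si:ch211-207c6 pair were the only members whose lowest bmp4 control lay over 3 times above the highest shh control, which 0.121% of such genes did. No member at that level met the reverse, which 0.146% did. Below that level, ENSDARG00000102552 met the reverse, at 0, 0 and 0 TPM in bmp4 controls and 1.33, 0.87 and 0.73 TPM in shh controls. ENSDARG00000096772 was higher in bmp4 controls by that fold, at 0.97, 0.58 and 0.86 TPM against 0, 0.14 and 0.14 TPM. Both si:ch211-207c6 genes were high in mutant RPE, where si:ch211-207c6.6 had 15, 14.5 and 9.62 TPM against 0.53, 0.14 and 1.99 TPM in wild-type RPE. In whole eyes the genotypes lay closer than in RPE, with 3.84, 1.87 and 2.73 TPM of si:ch211-207c6.6 in mutants and 1.54, 1.58 and 1.55 TPM in wild types.

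Of the 47 members tested in bmp4 larvae against their controls, edgeR called 0, where 0.0808% of all genes were higher and 0.0238% lower. At an unadjusted p under 0.05 there was 1, against 3.52% of all genes, and DESeq2 and limma called 0. With the library number as a block, which the paired deviations of these libraries allow, 2 members without a symbol were called lower by edgeR, ENSDARG00000040067 (log2 fold change -1.17, adjusted p = 0.0487) and ENSDARG00000100035 (log2 fold change -1.23, adjusted p = 0.0144), where 1.31% of all genes were lower. Of the 45 members tested in shh larvae against their controls, edgeR called 0, where 0% of all genes were called in either direction. At an unadjusted p under 0.05 there were 0, against 0.543% of all genes, and DESeq2 and limma called 0.

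Within the whole-eye groups of 1 month and the larval control groups, the 80 genes differed between libraries more often than all genes did. A spread was counted where the highest library was over 3 times the lowest. In the dissected groups, genes with a highest library of at least 1 TPM were counted. Members were spread for 7.69% in mutant retina (7.16% of all genes), 11.4% in mutant sclera (12%) and 31.2% in mutant RPE (20.2%). In wild types it was 65% in retina (10.2% of all genes), 48.5% in sclera (12.6%) and 56.8% in RPE (13.6%). The rule used the values of these groups, so nothing is read from their shares. In whole eyes and larval controls, genes whose highest library in a group had 1 to 10 TPM were compared. In mutant whole eyes, 16 of 44 members (36.4%) were spread in this way, against 15.9% of all genes at that level. In wild-type whole eyes it was 33 of 43 (76.7%) against 13.4%. In bmp4 controls it was 25 of 37 members (67.6%) against 15.8% of all genes, and in shh controls 17 of 37 (45.9%) against 16.8%. None of these whole-eye and larval groups entered the rule, but the rule chose genes with low wild-type values. Of the 80 genes, 51 were at 0 TPM in at least 1 of the 9 dissected wild-type libraries. A gene can enter the range through 1 library alone, so the range does not match the members to all genes in level. The shares are therefore a description.

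**Figure D5:**
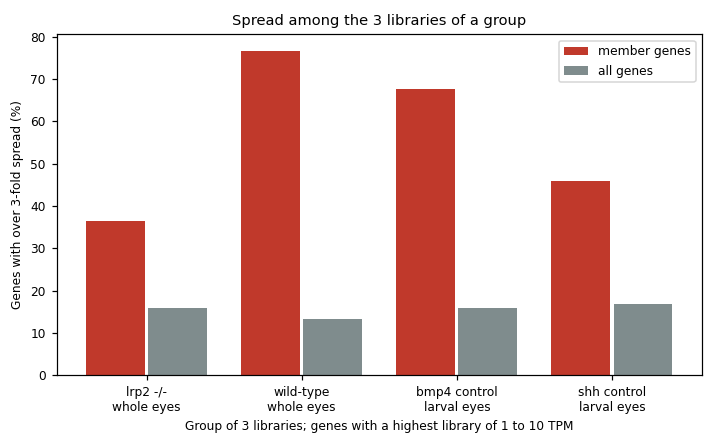
Share of genes, in percent, whose highest library was over 3 times the lowest of the 3 libraries of a group, among genes with a highest library of 1 to 10 TPM, with the 80 genes (red) left of all genes (grey). The share of the 80 genes is 36.4% in mutant whole eyes, 76.7% in wild-type whole eyes, 67.6% in bmp4 controls and 45.9% in shh controls, while that of all genes is 13.4% to 16.8%.

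Different members stood apart in different libraries. Some were high in bmp4 control 12 and in shh control 11. There si:ch211-114l13.11 had 78.9 TPM against 7.3 and 2.01 TPM in the other bmp4 controls, and 83.5 TPM against 1.68 and 2.62 TPM in the other shh controls. The genes si:ch211-250o15.5, si:ch211-22k7.1 and si:ch211-64i20.6 followed, with 8.64, 8.69 and 4.76 TPM in bmp4 control 12 and 6.77, 4.41 and 6.1 TPM in shh control 11. All 4 were also lowest in wild-type whole eye 2, at 0.3, 0, 0.17 and 0.2 TPM. The 4 were picked for being over 3 times above the other libraries in both bmp4 control 12 and shh control 11, which 14 of all genes were. Their likeness in these 2 groups therefore follows from the pick and is a description. The shares that follow are of genes whose highest library in the group reached 1 TPM, and members are not matched to all such genes in level. Of 49 such members in bmp4 controls, 7 (14.3%) were over 3 times above both other libraries in number 12, against 0.895% of all such genes. Of 49 in shh controls, 6 (12.2%) were so in number 11, against 1.05%. Among the 6 larval controls the largest group of members that stood apart was low in bmp4 control 13. There 10 members (20.4%) were at less than either other library divided by 3, against 1.53% of all such genes. In wild-type whole eyes the lowest library divided the 51 such members. In number 2, 15 (29.4%) were at less than either other library divided by 3, against 1.21% of all such genes, and in number 1 11 (21.6%), against 1.23%.

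Transgenic larvae repeated the pattern of the control library with their number. Of the 32 members spread over 3 times among bmp4 controls, 25 (78.1%) were highest in the transgenic library of the same number, against 56.3% of all genes so spread. Of the 21 among shh controls it was 16 (76.2%), against 53.5%. A test of the library number in the bmp4 set, chosen after these values were seen, called 29 of 47 members (61.7%) at an adjusted p under 0.05 by edgeR, against 27.5% of all genes. In the shh set the same test called 0 of 45 members and 0% of all genes, with 12 members and 976 genes (4.69%) at an unadjusted p under 0.05. The labels do not say what a number stands for.

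The mutant libraries had their own split. Genes with at least 1 TPM in both other libraries were compared. In mutant whole eye 1, 13 of 59 such members (22%) were at less than either other library divided by 3, against 1.13% of all such genes. In mutant RPE number 21 it was 14 of 69 (20.3%) against 4.94%, and nothing is read from that share because the rule used the RPE values. The 2 groups of members shared 10, or 71.4% of those low in RPE number 21 and 76.9% of those low in whole eye 1. Over all genes, 59 were low in both, or 6.46% and 28.4%. The shared count is a description as well, since RPE number 21 entered the rule. An example of a shared gene is si:dkey-242h9.3, with 29.2, 29.3 and 2.82 TPM in mutant RPE, the last being number 21, and 0, 22.6 and 18.7 TPM in mutant whole eyes, against 3.72, 0 and 8.83 TPM in wild-type whole eyes. The gene si:dkeyp-94g1.1 had 16.6, 12.7 and 2.11 TPM in mutant RPE and 0.62, 3.06 and 2.8 TPM in mutant whole eyes, against 0.12, 0.03 and 1.15 TPM in wild-type whole eyes. Also in the shared group were si:dkey-17m8.2 and si:dkey-17m8.3, from the same genome clone, si:dkey-199f5.6 and 5 genes without a symbol. In mutant retina and sclera si:dkey-242h9.3 had no such library, at 34.8, 32.2 and 30.2 TPM in retina and 24.9, 21.3 and 23.1 TPM in sclera. Without mutant whole eye 1, edgeR called 8 of 69 members higher and 1 lower in whole eyes, where 0.583% of all genes were higher and 1.06% lower.

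Position was known for few of the genes. A gene table of assembly GRCz12tu, used for names and order only, matched 19 of the 80 by symbol. Of these, 5 (26.3%) lie on the chromosome of lrp2a, the gene for the receptor. Of the genes with at least 1 TPM in a dissected library and a symbol in that table, 3.26% do (264 of 8091). The 5 members form 2 small groups. The genes crygm2d14 and crygm2d16 are adjacent, with crygm2d18 separated from crygm2d14 by 2 protein-coding genes, and zgc:172053 and ENSDARG00000094518 have 1 gene between them. The crystallin group lies 440 to 444 protein-coding genes from lrp2a and the other group 204 to 206. The levels of zgc:172053 were 17.5, 18.8 and 15.1 TPM in mutant sclera, against 3.6, 3.77 and 4.62 TPM in wild-type sclera, while whole eyes overlapped, with 2.22, 1.58 and 1 TPM in mutants and 8.19, 0.67 and 2.07 TPM in wild types. Since 61 of the 80 genes were not matched, the share does not describe the set.

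Copies with shared reads limit some values. ENSDARG00000098136 and ENSDARG00000098750 had equal TPM above 1 in 10 libraries, so neither value is certain alone. Whether the 2 copies of 5S ribosomal RNA share reads was not tested, and their values rest on few reads. The copy ENSDARG00000080037 had 17.6, 16.8 and 16.6 TPM in mutant retina and 0, 2.33 and 0 TPM in wild-type retina. The expected counts behind these values were 15, 14 and 12 in mutants and 0, 2 and 0 in wild types.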

How the data were processed

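RNA of zebrafish eyes and dissected eye tissues was sequenced in 36 libraries, 3 in each of 12 groups. Reads were processed with Bowtie2, HISAT and the genome build GRCz10, per the submitters' processing notes. The sources used here name neither the counter nor the gene annotation. The authors deposited TPM values per gene, which were used as deposited for the rule and for all levels. The authors also deposited expected counts per gene, which need not be whole and were rounded to whole numbers here before the count tests.

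The main test was edgeR 4.0.16 (quasi-likelihood, robust, TMM scaling, filterByExpr, R 4.3.3), with Benjamini-Hochberg adjustment over all genes tested and a call at an adjusted p under 0.05. DESeq2 1.42.0, limma 3.58.1 on log2(TPM + 0.1) and log2(TPM + 1), other scalings and filters, wider fits, a block on the library number and leaving out each library were the alternatives. The steps were tested on simulated data, and levels were tabulated with pandas 2.3.3 in Python 3.11.15. The larval tables were scaled separately by the authors, and their counts were joined by gene ID for the test between controls. Libraries were taken from the column names. No pair of libraries in a group agreed within sampling noise.

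Same-numbered bmp4 and control libraries deviated together from their group means (r of 0.45, 0.47 and 0.59), as did shh and control libraries (0.25, 0.38 and 0.25). The main tests of these 2 comparisons did not use the numbers as pairs, and the block on the library number was an alternative.

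The members and gene lists were chosen with earlier results of these data known. Genes were named from those counted in all 3 tissues, those called and the 15 others with the highest mutant level. Names were also taken from the 3 nearest the fold of 3 on each side, and from neighbours. Not all genes of these kinds are named: many without a symbol and some with one are left out. The comparison of spread at 1 to 10 TPM, the comparisons of single libraries, the crystallin ratio, the test of the library number and some genes without a symbol were chosen after the values were seen. Of the members not named, a few are counted but not reported here, and they are not drawn in the plots of single genes.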

Additional observations from a re-analysis of the deposited data

Results flagged for a closer look

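ENSDARG00000088687 went opposite ways in different samples of the same genotypes. Its mean was 76.7 TPM in mutant whole eyes and 161 TPM in wild-type whole eyes, with every mutant library below every wild-type one, while every mutant library of retina and of sclera was above every wild-type one. The difference between whole eyes and tissues was not tested, and the tissue values had chosen the gene.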

How the results depend on the processing

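The rule gave 80 genes. It gave 153 with a fold of 2, 26 with a fold of 5, 39 with a minimum mean of 5 TPM, and 80 to 109 when 1 library was left out. Over all genes tested, edgeR called 80 higher and 120 lower in mutant whole eyes. DESeq2 called 474 and 560, a fit of all 24 libraries of 1 month 218 and 243, and the counts ran from 1 to 127 and from 0 to 232 when 1 library was left out. Of the members, 5 were higher. The count was 24 with DESeq2, 3 and 8 with limma on log2(TPM + 0.1) and log2(TPM + 1), 21 in the fit of 24 libraries, and 0 to 8 without 1 library.

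Between the larval controls edgeR called 2 genes higher and 2 lower in bmp4 controls. Without the filter on low counts it called 6 and 5, DESeq2 called 117 and 102, limma called 8 higher with 0.1 TPM added and 0 higher with 1 TPM added, the fit of all 12 larval libraries gave 0 higher and 1 lower, and leaving out 1 library gave 0 to 4 each way. Members called were 0 each way, 1 higher with no filter, 4 higher and 3 lower with DESeq2, 1 higher and 1 lower with limma and 0.1 TPM added, and 0 without any 1 library.

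With a block on the library number, 2 members were called lower in bmp4 larvae and 0 in shh larvae. Over all genes the block gave 333 higher and 276 lower in bmp4 larvae, against 17 and 5 without it. Same-numbered libraries had an r of 0.23, 0.17 and 0.02 in whole eyes and of 0.05, 0.05 and 0.1 between the larval controls. Neither comparison was taken as paired. There the block gave 171 genes higher and 238 lower in whole eyes with 12 members higher and 1 lower, and 3 genes higher and 5 lower between controls. The cause of these changes was not tested.

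Of 208 single-gene values under alternatives, 160 kept direction and side of the threshold, 29 passed it newly, 19 lost it and 0 turned round. With 3 libraries a group, and with genotype and family inseparable, the differences are between these libraries.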

Other observations

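Some members with no named product departed from the common order in whole eyes. The gene si:dkey-61o18.2 had 7.04, 5.73 and 7.9 TPM in mutant RPE against 0.13, 0.71 and 1.45 TPM in wild-type RPE. Its whole eyes stood at 6.04, 5.84 and 6.05 TPM in mutants and 0.32, 7.07 and 6.58 TPM in wild types, so that the mutants were alike and the wild types were divided. The gene si:dkey-10g2.5 was divided in the mutants instead, at 31.8, 4.5 and 9.69 TPM in mutant whole eyes and 2.82, 0.84 and 1.8 TPM in wild-type whole eyes. The groups of si:dkey-10g2.5 did not overlap, and its difference did not pass the test (log2 fold change 2.91 ± 0.73 SE, adjusted p = 0.135 by edgeR).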
